A study of Mus musculus with 8 samples.

Results

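The Notch pathway genes described here are 10 genes known from muscle progenitors: the receptors Notch1, Notch2 and Notch3, the ligands Dll1, Jag1 and Jag2, the nuclear factor Rbpj, and the target genes Hes1, Hey1 and Heyl. They were taken by symbol from the 23336 gene rows of the deposited count table, all 10 were found, and all 10 were among the 15241 genes that passed the filter on low counts. Total RNA depleted of ribosomal RNA was sequenced from skeletal muscle of female C57BL/6 mice at postnatal day 2, in 4 ΔDMR1-U2 samples and 4 wild-type samples. ΔDMR1-U2 names a deletion at the imprinted locus of insulin-like growth factor 2 (Igf2), and the study asks about the transcripts of Igf2as, which is antisense to Igf2. In both groups the libraries are named 1A, 1B, 2 and 3. The labels give neither the parent that transmitted the deletion nor the muscle that was dissected, and nothing in them says that each library came from a separate litter, so p-values measure the spread between these libraries.

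Notch signalling passes between touching cells. A ligand of the Delta or Jagged family on one cell binds a Notch receptor on its neighbour, proteases then release the intracellular part of the receptor, and this part enters the nucleus, joins RBPJ and switches on target genes, above all repressors of the Hes and Hey families. In developing and postnatal muscle of the mouse, this pathway is known for holding progenitors and satellite cells, the stem cells of the fibre, in an undifferentiated state, and it also acts in endothelial and mural cells of blood vessels.

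The upstream sequences of 3 genes, Jag1, Rbpj and Nrarp, are shown first. Jag1 is the member with the smallest p, Rbpj the DNA-binding factor of the pathway, and Nrarp the further pathway gene with the smallest p. The sequences come from RefSeq, build GRCm38.p6, and run 5′ to 3′ on the strand of the gene. Capitals mark TGGGAA, the core of the sequence that RBPJ binds.
Jag1, chr2:137116645-137116770, minus strand: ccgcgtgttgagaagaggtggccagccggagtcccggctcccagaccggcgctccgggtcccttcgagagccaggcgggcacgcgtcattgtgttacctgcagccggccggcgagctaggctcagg
Rbpj, chr5:53590096-53590213, plus strand, at a start within the annotated gene: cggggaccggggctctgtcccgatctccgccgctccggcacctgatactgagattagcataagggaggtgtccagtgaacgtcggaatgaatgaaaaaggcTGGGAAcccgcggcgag
Nrarp, chr2:25180508-25180757, plus strand: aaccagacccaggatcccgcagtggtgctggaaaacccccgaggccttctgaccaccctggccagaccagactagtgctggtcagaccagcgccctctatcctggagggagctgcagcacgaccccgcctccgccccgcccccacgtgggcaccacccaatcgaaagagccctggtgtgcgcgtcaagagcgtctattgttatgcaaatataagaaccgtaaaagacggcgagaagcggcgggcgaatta

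TGGGAA was searched on both strands, as TGGGAA or TTCCCA, in windows of 300 bases that hold 250 before and 50 after each annotated start. Of the 10 members, 7 matched a window, and Hes1, Hey1 and Heyl did not. The 7 had 9 windows, and 2 of the 9, or 22.2%, held the motif, both of them windows of Rbpj. Among 53 windows of 39 further pathway genes 24.5% held it, and among all 32851 windows 25.6% did. The members' share rests on 9 windows, with both hits in Rbpj and no window for the target genes. It therefore cannot show whether the members differ from other promoter windows.

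Total counts were 16781493 to 20060129 per ΔDMR1-U2 library, against 16084413 to 26913636 per wild-type library. Igf2as, which checks the labels, had a level of 5.55 to 6.18 CPM, the read count rescaled by library size, in ΔDMR1-U2 libraries, against 54.4 to 72.2 CPM in wild-type libraries. ΔDMR1-U2 library 1A goes against its labelled sex in one respect: Xist, which coats the inactive X chromosome, was at 2.503 CPM there (49 reads) and at 1270 to 1895 CPM in the remaining libraries. The Y-linked genes Kdm5d, Uty, Ddx3y and Eif2s3y together had 3 counts in that library and 0 to 8 in any library. Fits without library 1A are given for the median of the members and for Notch1, Hes1, Jag1, Heyl and Nrarp. Other results include library 1A unless stated otherwise.

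The tissue was checked with lists of marker genes, summed in CPM. The 11 progenitor markers summed to 482.3 to 578.5 CPM in ΔDMR1-U2 muscle and 507.9 to 585.4 CPM in wild-type muscle. All were detected, and Pax3 alone fell below the filter, at 1 to 13 counts. In ΔDMR1-U2 and wild-type libraries, means were 19.8 and 21.3 CPM for Pax7, 21.9 and 20.6 for Myf5, and 144.8 and 158.7 for Itga7, the largest part. At an unadjusted p under 0.05 in edgeR, 1 marker was higher, Sdc4, and 1 lower, Vcam1, against 10.4% and 10.9% of all tested genes. The 6 myofibre markers summed to 155200 to 175300 CPM in ΔDMR1-U2, against 170700 to 201400 CPM in wild-type. Ttn made up most of this sum, with means of 111200 CPM (ΔDMR1-U2) and 123500 CPM (wild-type). All 6 had a negative log2 fold change. At an unadjusted p under 0.05 in edgeR, 2 were lower, Myh3 (-0.34) and Mylpf (-0.33), and 0 higher, against 10.9% and 10.4% of all tested genes. The groups were fully apart for Mylpf alone, against 12.8% of all tested genes. Endothelial markers (10 of 10 detected) summed to 693.3 to 745.6 CPM in ΔDMR1-U2, against 689 to 749.5 CPM in wild-type. Mural markers (10 of 10) summed to 888.4 to 1054 CPM in ΔDMR1-U2, against 982.1 to 1058 CPM in wild-type. Of the 10 mural markers, 5 had a positive and 5 a negative log2 fold change. At an unadjusted p under 0.05 in edgeR, 0 were higher and 2 lower, Acta2 (-0.37) and Abcc9 (-0.2), against 10.4% and 10.9% of all tested genes. In such bulk RNA, fewer cells of a type and less RNA per cell cannot be told apart, and the levels below are those of the whole muscle, not of its progenitors.

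Of the 10 Notch genes, 0 passed the threshold of an adjusted p under 0.05 (edgeR quasi-likelihood test, Benjamini-Hochberg over 15241 genes), against 1.13% of all tested genes, and 0 of 10 passed in DESeq2, which called 6.44% of genes. At an unadjusted p under 0.05 there were 2 of 10, Jag1 on the higher side and Heyl on the lower side, against 21.3% of all tested genes, which divide into 10.4% higher and 10.9% lower in ΔDMR1-U2. In 0 of the 10 were the libraries of the groups fully apart, against 12.8% of all tested genes. The authors' deposited table calls 0.887% of the genes it tested at an adjusted p under 0.05 and none of the 10. None of the shares of the members exceeded the background.

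On the log2 scale the differences of the 10 genes, ΔDMR1-U2 minus wild-type, ran from -0.31 for Heyl to 0.27 for Jag1. Their median was -0.077, against -0.001 over all tested genes, with 3 positive and 7 negative; Rbpj, among the 7, was positive when libraries were scaled by their totals only. The median of the members turned positive without ΔDMR1-U2 library 1B (0.0225) and without both 1A and 1B (0.066). It was -0.0398 without library 1A and -0.165 without library 3. The median size of the difference, regardless of sign, was 0.093 against 0.137 over all tested genes, and the median standard error was 0.11 in both.

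**Figure D1:**
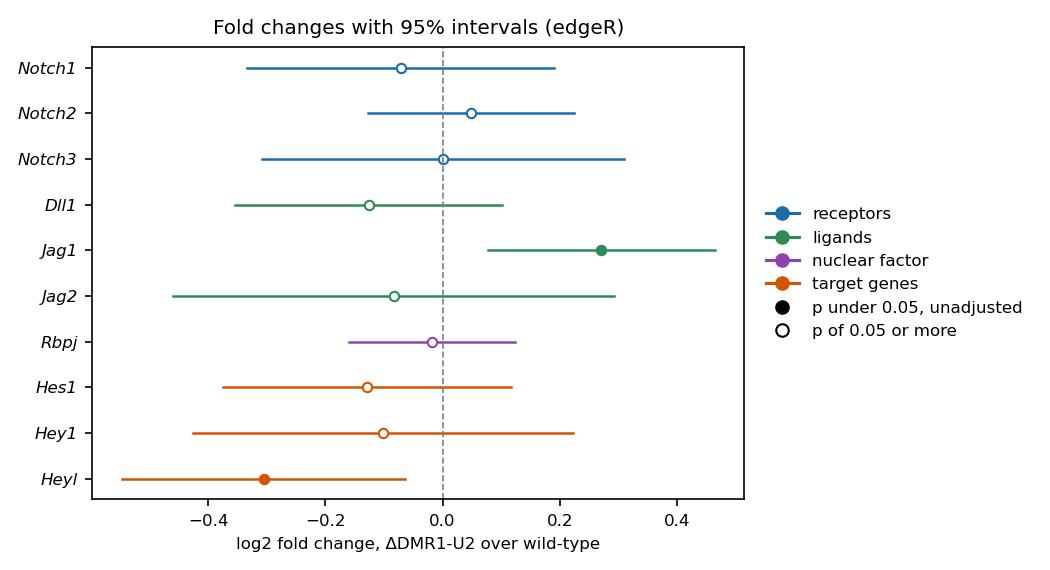
Log2 fold change of ΔDMR1-U2 over wild-type for the 10 Notch genes on the horizontal axis, with 95% intervals from edgeR (n = 4 each) and colours for the role of each gene. The intervals of Jag1 (0.08 to 0.46) and Heyl (-0.55 to -0.064) lie to one side of 0, and the other 8 cross it.

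Notch2 and Notch3 were the most abundant members. Per kilobase of exon, the level was highest for Notch2, at 24.5 ± 2.36 CPM per kb in ΔDMR1-U2 muscle and 23.7 ± 1.41 in wild-type muscle, then for Notch3 and Jag1. The mean order below these was Notch1, Jag2, Rbpj, Hes1, Heyl, Dll1 and Hey1 in both groups, down to 2.44 CPM per kb for Hey1 in ΔDMR1-U2 muscle and 2.61 in wild-type muscle. Some neighbours in this order overlapped in range. In ΔDMR1-U2 these were Notch1 with Jag2, Jag2 with Rbpj, Rbpj with Hes1, Heyl with Dll1 and Dll1 with Hey1. In wild-type they were Jag1 with Notch1, Notch1 with Jag2 and Rbpj with Hes1. Both genes of a pair were measured in the same libraries, so such overlap does not show that their levels are alike. The order within each library was not tested. Exon length here is the union of all annotated exons in GENCODE vM21, so a gene with long rare exons is placed too low.

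**Figure D2:**
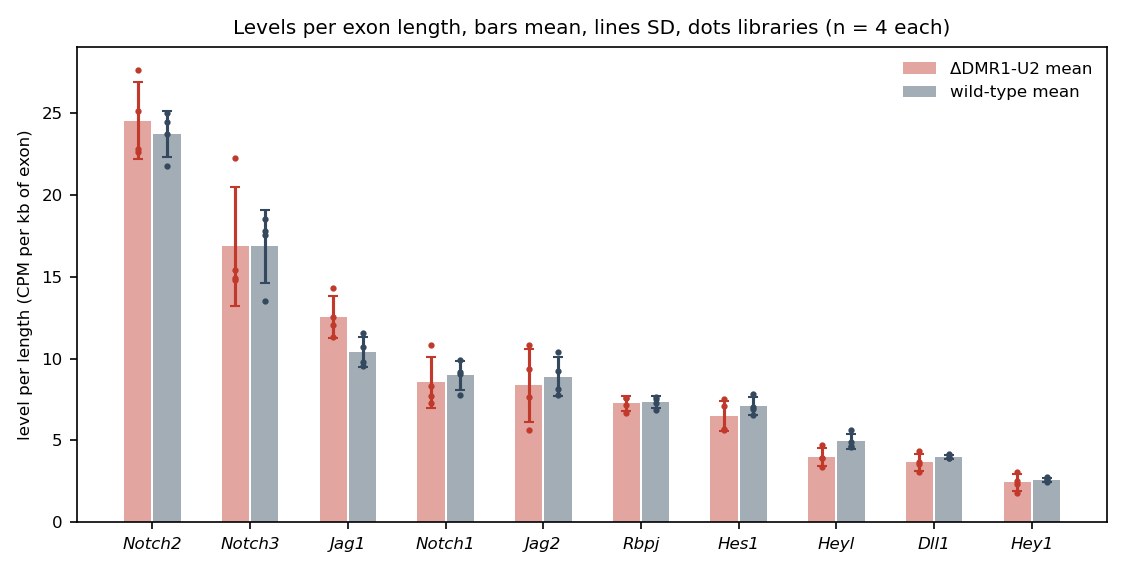
Level per length (CPM per kb of exon) of each Notch gene, with ΔDMR1-U2 bars left of wild-type bars. Bars are means, lines SD and dots single libraries (n = 4 each). Notch2 is highest in both groups (24.5 CPM per kb in ΔDMR1-U2, 23.7 in wild-type) and Hey1 lowest (2.44 in ΔDMR1-U2, 2.61 in wild-type).

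Notch1, a receptor that keeps mouse satellite cells quiescent together with Notch2, had 109.8, 104.1, 118.5 and 153.9 CPM in ΔDMR1-U2 libraries 1A, 1B, 2 and 3, against 141.3, 111, 130.4 and 128.8 CPM in wild-type libraries 1A, 1B, 2 and 3. ΔDMR1-U2 library 3 was above every wild-type library and libraries 1A and 1B were below every one, so the wild-type range lay inside that of ΔDMR1-U2. The means were 121.6 ± 22.3 CPM in ΔDMR1-U2 libraries and 127.9 ± 12.5 CPM in wild-type libraries (SD, n = 4 each), and the log2 fold change was -0.072 ± 0.12 SE (edgeR adjusted p = 0.767). Without ΔDMR1-U2 library 1A the log2 fold change was -0.023. The gene lies on mm10 chromosome 2 from 26457903 to 26516663 (minus strand), and its exons overlap 0610009E02Rik and Gm13568 on the other strand.

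Notch2 reached 245.4, 270.3, 243.6 and 297.8 CPM in ΔDMR1-U2 libraries, against 255.6, 234.3, 263.4 and 269.2 CPM in wild-type libraries. The groups overlapped, with ΔDMR1-U2 library 3 highest of the 8. Its log2 fold change was 0.048 ± 0.08 SE (edgeR adjusted p = 0.766), and the 95% interval, -0.13 to 0.22, is the narrowest of the receptors. Notch2 lies on chromosome 3 from 98013527 to 98150361 (plus strand), and 541 of its exon bases are also exon of Gm42820 on the same strand.

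Notch3, a receptor that acts in satellite cells and in the mural cells of vessels, stood at 119.5, 120.6, 124.8 and 179.9 CPM in ΔDMR1-U2 libraries, against 143.9, 109.4, 142 and 149.6 CPM in wild-type libraries. ΔDMR1-U2 libraries 1A, 1B and 2 were close together, and library 3 was above all the others. The means were 136.2 ± 29.2 CPM in ΔDMR1-U2 libraries and 136.2 ± 18.2 CPM in wild-type libraries (SD, n = 4 each), with a log2 fold change of 0.00061, a standard error of 0.14 and a 95% interval of -0.31 to 0.31 (edgeR adjusted p = 0.999). Without ΔDMR1-U2 library 3 the log2 fold change was -0.158, and without wild-type library 1B it was -0.09. Notch3 lies on chromosome 17 from 32120820 to 32166852 (minus strand), and Gm17276 overlaps its exons on the other strand.

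Summed per kilobase over the 3 receptors, Notch2 made up 49.4% ± 3.13 in ΔDMR1-U2 muscle and 48% ± 1.83 in wild-type muscle, while Notch3 made up 33.5% ± 2.21 in ΔDMR1-U2 and 33.9% ± 1.7 in wild-type libraries, and Notch1 17.1% ± 1.14 in ΔDMR1-U2 and 18.1% ± 0.861 in wild-type libraries (SD, n = 4 each). The libraries of the groups overlapped for each receptor.

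**Figure D3:**
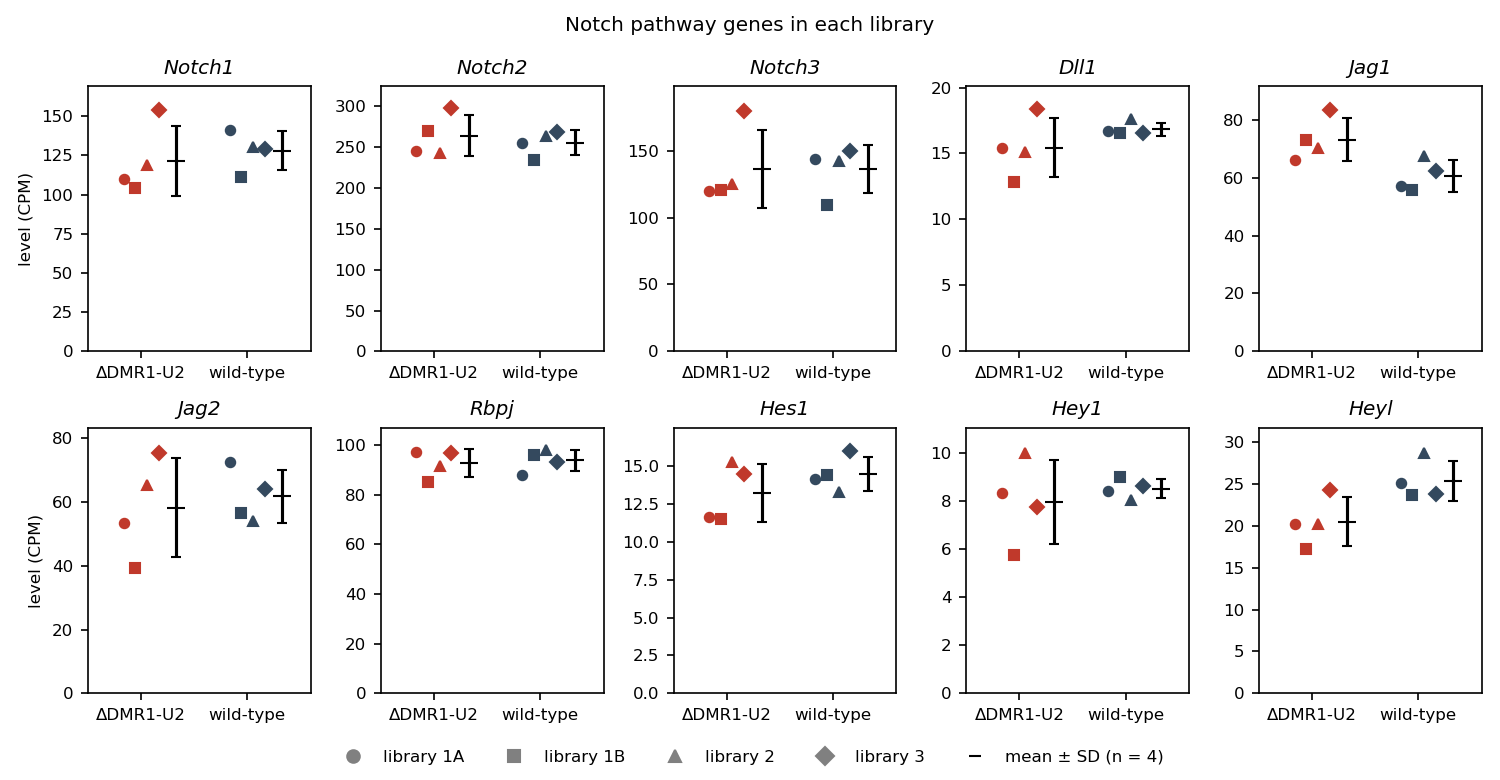
Level in CPM of each of the 10 Notch genes in every library, ΔDMR1-U2 left of wild-type, with a symbol for each library name and the mean ± SD beside it (n = 4 each). ΔDMR1-U2 library 3 is the highest of its group in 7 of 10 genes and library 1B the lowest in 7 of 10, and the groups overlap in every panel.

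Among the ligands, Jag1 was the member with the smallest p. Jagged1 is known as a ligand of Notch3 in vessel walls and is also found in muscle. Jag1 had 65.9, 72.9, 70.2 and 83.4 CPM in ΔDMR1-U2 libraries, against 57, 55.6, 67.5 and 62.3 CPM in wild-type libraries. Of the ΔDMR1-U2 libraries, 1B, 2 and 3 were above every wild-type library, while 1A was below wild-type library 2. The means were 73.1 ± 7.44 CPM in ΔDMR1-U2 libraries and 60.6 ± 5.44 CPM in wild-type libraries (SD, n = 4 each), a fold of 1.21 with a 95% interval of 1.05 to 1.38. The log2 fold change was 0.27 ± 0.088 SE, and it did not pass the threshold (edgeR adjusted p = 0.126). The unadjusted p was 0.0105 in edgeR.

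Jag1 kept a positive log2 fold change when any 1 library was left out, from 0.206 without ΔDMR1-U2 library 3 to 0.331 without wild-type library 2, with adjusted p between 0.102 and 0.29 in edgeR. Without library 1A it was 0.321 (edgeR adjusted p = 0.102), and without both 1A and 1B 0.341 (edgeR adjusted p = 0.193). DESeq2 gave 0.274 (adjusted p = 0.0724), while in the authors' deposited table, which runs wild-type over ΔDMR1-U2, the log2 ratio is -0.271 and the adjusted p is 0.401. The gene lies on chromosome 2 from 137081456 to 137116644 (minus strand), directly downstream of the sequence shown, and no annotated exon of another gene overlaps its exons. Schwann cell markers (5 of 5 detected) also summed higher, at 305.9 to 384.9 CPM in ΔDMR1-U2 muscle and 233.3 to 298.5 CPM in wild-type muscle, and their part in the Jag1 difference was not tested.

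Jag2, the second Jagged ligand, was at 53.4, 39.3, 65.3 and 75.3 CPM in ΔDMR1-U2 libraries, against 72.6, 56.6, 54.1 and 64.3 CPM in wild-type libraries. It varied the most between libraries of all members, with a coefficient of variation of 26.6% in ΔDMR1-U2 muscle and 13.5% in wild-type muscle. The ΔDMR1-U2 libraries held both the highest and the lowest value of the 8. Its log2 fold change was -0.083 ± 0.17 SE (edgeR adjusted p = 0.817), and the 95% interval, -0.46 to 0.29, is the widest of the 10. Without ΔDMR1-U2 library 1B the sign turned, to 0.066. Jag2 lies on chromosome 12 from 112907819 to 112929776 (minus strand).

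Dll1, the Delta ligand that fetal muscle of the mouse needs to keep its progenitors, stood at 15.4, 12.9, 15.1 and 18.4 CPM in ΔDMR1-U2 libraries, against 16.7, 16.5, 17.6 and 16.6 CPM in wild-type libraries. ΔDMR1-U2 libraries 1A, 1B and 2 were below every wild-type library, and library 3 was above every one. The log2 fold change was -0.13 ± 0.1 SE (edgeR adjusted p = 0.506). It was -0.218 without ΔDMR1-U2 library 3 (edgeR adjusted p = 0.24), -0.047 without library 1B and -0.01 without both 1A and 1B. Dll1 lies on chromosome 17 from 15367354 to 15376872 (minus strand), and A930024N18Rik overlaps its exons on the other strand.

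The make-up of the 3 ligands can be read within each library, where the scaling of library size cancels. Per kilobase, Jag1 made up 50%, 59%, 48.2% and 48.6% of the ligands in ΔDMR1-U2 libraries 1A, 1B, 2 and 3, against 40.5%, 44.2%, 49.2% and 44.8% in wild-type libraries. The means were 51.4% ± 5.11 in ΔDMR1-U2 and 44.7% ± 3.6 in wild-type libraries (SD, n = 4 each), and wild-type library 2 lay inside the ΔDMR1-U2 range. The ratio of Jag1 to Jag2 was 1.48, 2.22, 1.29 and 1.32 in ΔDMR1-U2 libraries, against 0.938, 1.17, 1.49 and 1.16 in wild-type libraries, so the groups overlapped there too. Dll1 made up 16.1%, 14.4%, 14.3% and 14.8% in ΔDMR1-U2 libraries, against 16.4%, 18.2%, 17.7% and 16.5% in wild-type libraries, with every ΔDMR1-U2 library below every wild-type library. Of 13 such shares and ratios computed for the members, the share of Dll1 was the 1 without overlap, and no test was made of it. In CPM, 12.8% of all tested genes had no overlap, and Dll1 itself did overlap. The 3 ligand shares are parts of the same whole, so they do not vary independently.

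Rbpj, which encodes the DNA-binding partner of every Notch receptor, had 97, 85, 91.6 and 96.7 CPM in ΔDMR1-U2 libraries, against 87.8, 96.1, 97.8 and 93.2 CPM in wild-type libraries. The ranges nearly coincided, and the coefficient of variation was 6.06% in ΔDMR1-U2, the lowest of the 10, and 4.66% in wild-type. The log2 fold change was -0.018 ± 0.065 SE (edgeR adjusted p = 0.899). Its 95% interval, -0.16 to 0.12, is the narrowest of the members. Rbpj lies on chromosome 5 from 53466152 to 53657362 (plus strand). Reads may be shared with 2 annotated pseudogenes, Rbpj-ps1 and Rbpj-ps3, which makes its level less certain. Pseudogenes of the members were sought by the member's name only.

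The 3 target genes, all coding for repressors of transcription, had negative log2 fold changes and a lower mean level per kilobase than any receptor in either group. Hes1 had 11.7, 11.5, 15.3 and 14.4 CPM in ΔDMR1-U2 libraries, against 14.2, 14.4, 13.3 and 16 CPM in wild-type libraries. ΔDMR1-U2 libraries 1A and 1B were below every wild-type library, and libraries 2 and 3 were within their range. The log2 fold change was -0.13 ± 0.11 SE (edgeR adjusted p = 0.531), and without ΔDMR1-U2 library 1A it was -0.07. Hes1 lies on chromosome 16 from 30064384 to 30067796 (plus strand).

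Hey1, which mouse satellite cells need together with Heyl, was the least abundant member per kilobase, with 108 to 236 counts per library. It stood at 8.33, 5.76, 10.02 and 7.74 CPM in ΔDMR1-U2 libraries, against 8.44, 9.03, 8.04 and 8.62 CPM in wild-type libraries. The wild-type libraries were close together and lay within the ΔDMR1-U2 range, whose highest was library 2 and whose lowest was library 1B. The log2 fold change was -0.1 ± 0.15 SE (edgeR adjusted p = 0.725), and without library 1B its sign turned, to 0.024. Hey1 lies on chromosome 3 from 8663359 to 8667256 (minus strand).

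Heyl had 20.2, 17.2, 20.2 and 24.3 CPM in ΔDMR1-U2 libraries, against 25.1, 23.6, 28.7 and 23.7 CPM in wild-type libraries. ΔDMR1-U2 libraries 1A, 1B and 2 were below every wild-type library, while library 3 was above wild-type libraries 1B and 3. The means were 20.4 ± 2.91 CPM in ΔDMR1-U2 libraries and 25.3 ± 2.38 CPM in wild-type libraries (SD, n = 4 each), a fold of 0.809 with a 95% interval of 0.684 to 0.957. The log2 fold change was -0.31 ± 0.11 SE, and it did not pass the threshold (edgeR adjusted p = 0.154). The unadjusted p was 0.0179 in edgeR.

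When 1 library was left out, the log2 fold change of Heyl ran from -0.396 without ΔDMR1-U2 library 3 to -0.23 without ΔDMR1-U2 library 1B, with adjusted p between 0.113 and 0.302 in edgeR. Without library 1A it was -0.296 (edgeR adjusted p = 0.209), and without both 1A and 1B -0.186 (edgeR adjusted p = 0.529). DESeq2 gave -0.303 (adjusted p = 0.116), while in the authors' deposited table the ratio, wild-type over ΔDMR1-U2, is 1.24 with an adjusted p of 0.432. Heyl lies on chromosome 4 from 123233556 to 123249875 (plus strand). Relative to Notch3 in the same library, per kilobase, Heyl was at 0.267, 0.225, 0.256 and 0.213 in ΔDMR1-U2, against 0.275, 0.342, 0.32 and 0.251 in wild-type, where wild-type library 3 overlapped the ΔDMR1-U2 range.

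Taken over the 10 genes, the median log2 deviation from the wild-type mean was -0.153, -0.306, -0.05 and 0.172 in ΔDMR1-U2 libraries 1A, 1B, 2 and 3, against -0.0089, -0.107, 0.053 and 0.031 in wild-type libraries. ΔDMR1-U2 library 3 was the highest of its group for 7 of 10 members, against 22.9% of all tested genes, and library 1B the lowest for 7 of 10, against 28.6%. Wild-type library 1B was the lowest of its group for 6 of 10, against 25.5% of all tested genes. The coefficient of variation was higher in ΔDMR1-U2 than in wild-type for 10 of 10 members, against 64.5% of all tested genes, with medians over the members of 14.6% in ΔDMR1-U2 and 8.32% in wild-type. Without ΔDMR1-U2 library 3 it was higher for 5 of 10 members, against 60.5% of all tested genes.

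Marker genes set these libraries apart as well. ΔDMR1-U2 library 3 had the lowest sum of cartilage markers (5 of 5 detected), 36.5 CPM, against 349.4 to 588.2 CPM in the other ΔDMR1-U2 libraries, and wild-type library 1A had 56.8 CPM, against 583.1 to 1292 CPM in the other wild-type libraries. ΔDMR1-U2 library 1B had the highest sum of adipocyte markers (7 of 7 detected), 601.8 CPM, against 234.4 to 265.7 CPM in the others of its group and 179.1 to 246.1 CPM in wild-type. Fibroblast markers (6 of 6) summed to 4696 to 6833 CPM in ΔDMR1-U2 muscle and 5982 to 10210 CPM in wild-type muscle. Col1a1 made up most of this sum, with group means of 4909 CPM (ΔDMR1-U2) and 6898 CPM (wild-type). Of the 6 fibroblast genes, 5 had a negative log2 fold change and 1, Pdgfra, a positive one. Col1a1 was lower (-0.49) and Pdgfra higher (0.41) at an unadjusted p under 0.05 in edgeR. The shares of all tested genes were 10.9% lower and 10.4% higher. For Pdgfra, every ΔDMR1-U2 library was above every wild-type library. The part of these marker genes' cell types in the levels of the Notch genes was not tested. Macrophage markers (4 of 5) summed to 101.6 to 128.5 CPM in ΔDMR1-U2 libraries, against 114.5 to 165.1 CPM in wild-type libraries. Epidermal markers (6 of 6) summed to 19.2 to 39.4 CPM in ΔDMR1-U2 libraries, against 19.3 to 27.5 CPM in wild-type libraries. Differentiating myocyte markers (4 of 6) summed to 301.5 to 371.3 CPM in ΔDMR1-U2 libraries, against 302.3 to 385.2 CPM in wild-type libraries, and Mymk, Mymx and Adgre1 were not analysed here.

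The count of members with an unadjusted p under 0.05 moved with the libraries. Without ΔDMR1-U2 library 3 it was 4 of 10, against 18.7% of all genes tested in that fit, Jag1 on the higher side and Notch1, Dll1 and Heyl on the lower side, and Notch1 had a log2 fold change of -0.201 (edgeR adjusted p = 0.251). Without wild-type library 2 it was 1 of 10, Jag1, against 18.2% of all genes, and without both ΔDMR1-U2 libraries 1A and 1B it was also Jag1 alone, against 13.4%. In each of these fits 0 of 10 passed the adjusted threshold.

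A further 49 genes of the pathway were listed by role, and 46 were tested. Dll3, Hes5 and Hes7 fell below the filter, at 0 to 3, 0 to 5 and 2 to 7 counts per library. Of the 46, 0 passed the adjusted threshold in edgeR, against 1.13% of all tested genes. In DESeq2 3 of the 46 passed, Mib1, Kdm5a and Nrarp, a share of 6.52% that is near the 6.44% of all genes called there. At an unadjusted p under 0.05 there were 7 higher and 5 lower, against the background of 10.4% and 10.9% of all tested genes. The libraries of the groups were fully apart for 6 genes on the higher side and 2 on the lower side, against 12.8% of all tested genes in either direction. The median log2 fold change was 0.05, with 26 positive and 20 negative.

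**Figure D4:**
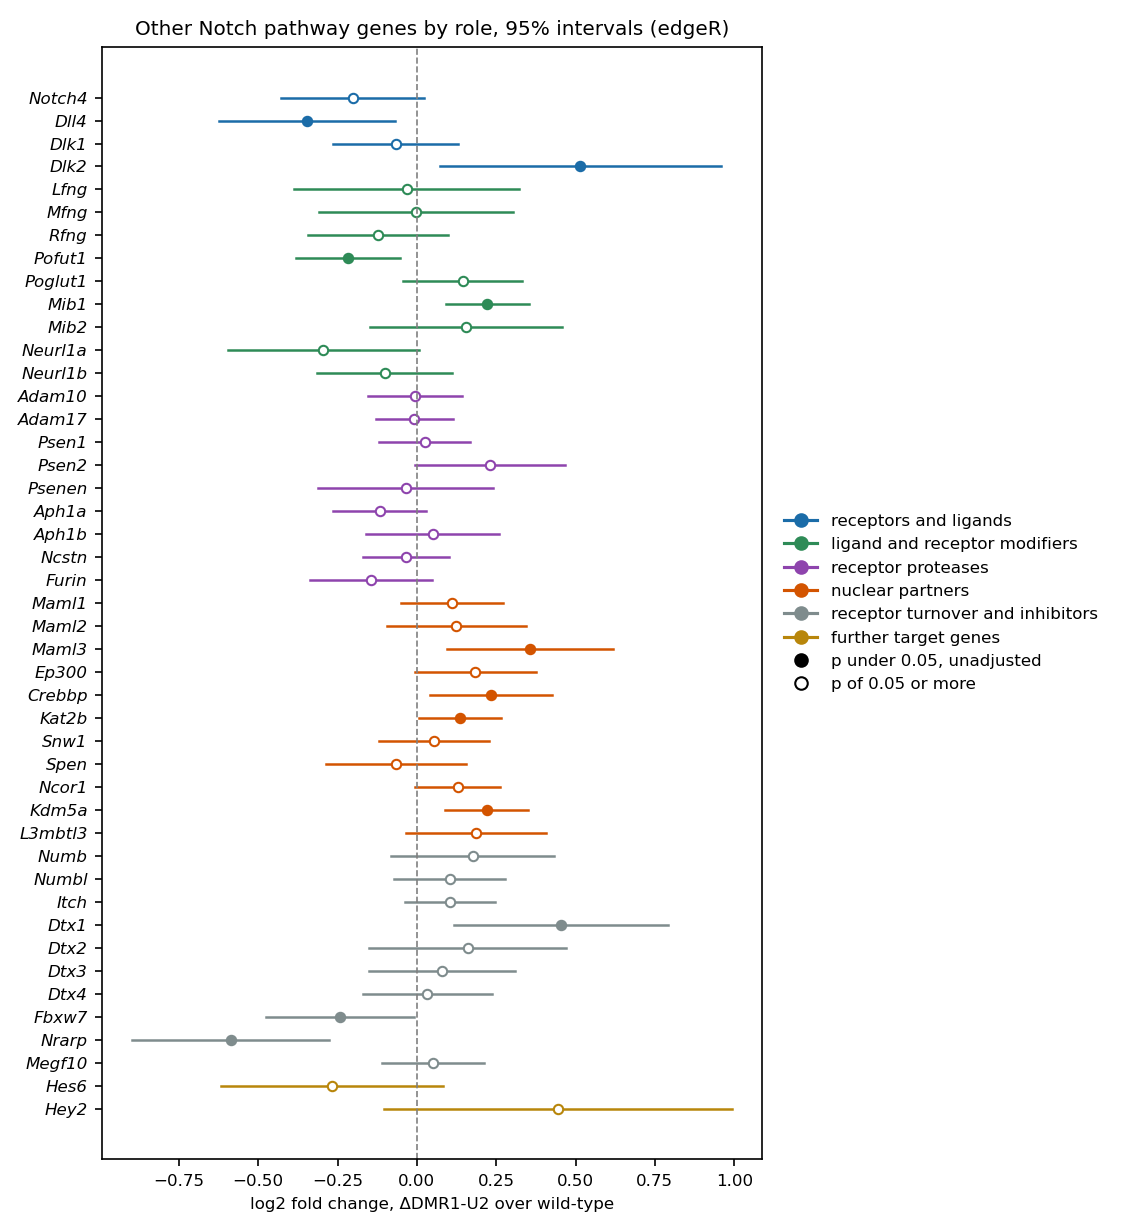
Log2 fold change of ΔDMR1-U2 over wild-type for 45 of the 46 further Notch pathway genes tested, ordered and coloured by role, with 95% intervals from edgeR (n = 4 each). Filled points have an unadjusted p under 0.05, 7 to the right of 0 and 4 to the left. Nrarp lies farthest to the left, at -0.59.

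Nrarp, a target gene of Notch that codes for a small ankyrin repeat protein limiting the signal, had the smallest p of the 46. It stood at 8.48, 9.07, 12.9 and 11.99 CPM in ΔDMR1-U2 libraries, against 18.4, 14.5, 15.3 and 15.8 CPM in wild-type libraries. Every ΔDMR1-U2 library was below every wild-type library. The means were 10.6 ± 2.18 CPM in ΔDMR1-U2 libraries and 15.98 ± 1.72 CPM in wild-type libraries (SD, n = 4 each), and the log2 fold change was -0.59 ± 0.14 SE (edgeR adjusted p = 0.0665).

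The call on Nrarp depended on the test and on the libraries. DESeq2 gave -0.584 (adjusted p = 0.00599), while in the authors' deposited table the ratio, wild-type over ΔDMR1-U2, is 1.5 with an adjusted p of 0.0373. Without ΔDMR1-U2 library 2, edgeR gave -0.692 (adjusted p = 0.0316). Without library 1A it gave -0.489 (edgeR adjusted p = 0.0984), and without both 1A and 1B -0.355 (edgeR adjusted p = 0.256). Nrarp lies on chromosome 2 from 25180758 to 25183339 (plus strand), directly after the sequence shown, and 2051 of its 2582 exon bases are also exon of Gm38287 on the other strand. Whether the counting used strand is not stated, so reads of Nrarp and Gm38287 cannot be told apart.

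**Figure D5:**
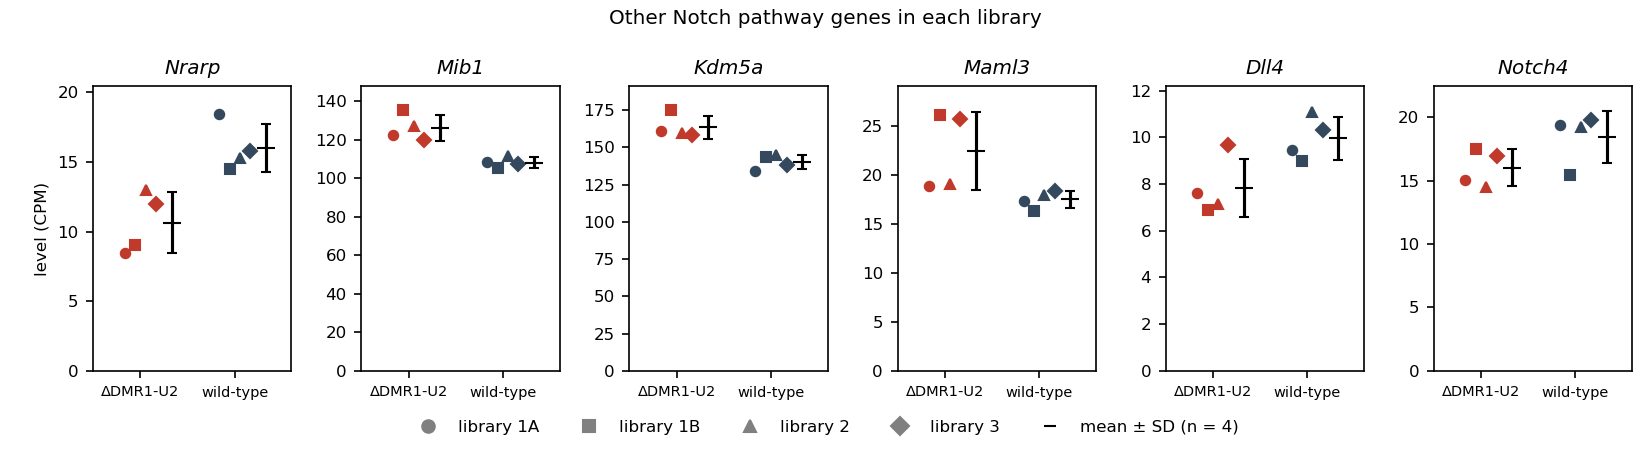
Level in CPM of 6 further pathway genes in every library, ΔDMR1-U2 left of wild-type, with a symbol for each library name and the mean ± SD beside it (n = 4 each); the 6 were chosen after their values were seen. The libraries of the groups are fully apart for Nrarp, Mib1, Kdm5a and Maml3 and overlap for Dll4 and Notch4.

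The further receptors and ligands divided. Dll4, the Delta ligand of vessel endothelium, had 7.61, 6.88, 7.16 and 9.67 CPM in ΔDMR1-U2 libraries, against 9.47, 8.99, 11.1 and 10.3 CPM in wild-type libraries, and only ΔDMR1-U2 library 3 reached into the wild-type range. Its log2 fold change was -0.35 ± 0.13 SE (edgeR adjusted p = 0.158). Beside it, of the 10 endothelial markers 7 had a positive log2 fold change and 3 a negative one. At an unadjusted p under 0.05 in edgeR, 2 were higher and 1 lower, against 10.4% and 10.9% of all tested genes. The higher ones were Tek (log2 fold change 0.2) and Cldn5 (0.23). The lower one, Cdh5, had 126.7 to 147.6 CPM in ΔDMR1-U2 libraries, against 162.5 to 178.5 CPM in wild-type libraries, with a log2 fold change of -0.28 (edgeR adjusted p = 0.0644). The part of endothelial cells in the Dll4 difference was not tested. Notch4, the endothelial receptor, averaged 16.01 ± 1.45 CPM in ΔDMR1-U2 muscle and 18.5 ± 2.04 CPM in wild-type muscle (SD, n = 4 each), with a log2 fold change of -0.2 (edgeR adjusted p = 0.28). Dlk1, an imprinted Delta-like protein without the usual receptor-binding domain, had the highest CPM of this class, 915.1 ± 69.9 in ΔDMR1-U2 and 958.2 ± 96.6 in wild-type libraries, with a log2 fold change of -0.066 (edgeR adjusted p = 0.702). Dlk2, its relative, was at 2.70 ± 0.445 CPM in ΔDMR1-U2 libraries and 1.87 ± 0.42 CPM in wild-type libraries, with 0.52 (edgeR adjusted p = 0.182).

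Among 9 modifiers of ligands and receptors, Mib1 was on the higher side and Pofut1 on the lower side at an unadjusted p under 0.05. The shares of all tested genes were 10.4% higher and 10.9% lower. The groups were fully apart for 1 modifier on each side, against 12.8% of all tested genes. Mib1, the ubiquitin ligase that lets ligands be taken up and so become active, had 122.1, 135.3, 127 and 119.7 CPM in ΔDMR1-U2 libraries, against 108.3, 105.2, 111.6 and 107.2 CPM in wild-type libraries, with no overlap. Its log2 fold change was 0.22 ± 0.059 SE (edgeR adjusted p = 0.0845; DESeq2 adjusted p = 0.0185). Pofut1, which adds the fucose that receptors need to bind ligands, had 77.9, 66.4, 78.9 and 83.8 CPM in ΔDMR1-U2 libraries, against 93.9, 88.8, 87.1 and 87.5 CPM in wild-type libraries, also with no overlap, and a log2 fold change of -0.22 (edgeR adjusted p = 0.14).

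The 9 receptor proteases gave 0 genes with an unadjusted p under 0.05, against 21.3% of all tested genes. Their median log2 fold change was -0.0076. Adam10, which makes the cut that follows ligand binding, averaged 83.3 ± 4.54 CPM in ΔDMR1-U2 muscle and 83.6 ± 5.59 CPM in wild-type muscle (SD, n = 4 each), with a log2 fold change of -0.0058 whose sign turned under other scalings. Furin, which cleaves the receptor on its way to the surface, averaged 63.9 ± 1.96 CPM in ΔDMR1-U2 libraries and 70.6 ± 9.07 CPM in wild-type libraries, with -0.14 (edgeR adjusted p = 0.358).

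Of 12 nuclear partners, 10 had a positive log2 fold change, against 7592 of all 15241 tested genes. Of the 12, 4 were higher at an unadjusted p under 0.05 in edgeR, against 10.4% of all tested genes on that side. The groups were fully apart for 4 of the 12, against 12.8% of all tested genes. Kdm5a, a histone demethylase that acts with RBPJ in repression, had 160.7, 175, 159.5 and 158.3 CPM in ΔDMR1-U2 libraries, against 134.4, 143.5, 144.7 and 138.2 CPM in wild-type libraries, with no overlap. Its log2 fold change was 0.22 ± 0.059 SE (edgeR adjusted p = 0.0869; DESeq2 adjusted p = 0.0161). Maml3, a Mastermind coactivator, had 0.36 (edgeR adjusted p = 0.132), at 18.9 to 26.1 CPM in ΔDMR1-U2 libraries and 16.3 to 18.4 CPM in wild-type libraries, with no overlap. The acetyltransferases Crebbp and Kat2b had 0.23 and 0.14 (edgeR adjusted p = 0.168 and 0.213). Ncor1, a corepressor, had the highest CPM of the class, 327.2 ± 15.6 in ΔDMR1-U2 and 299.3 ± 7.31 in wild-type libraries (SD, n = 4 each), with a log2 fold change of 0.13 (edgeR adjusted p = 0.248).

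Of 10 genes of receptor turnover and inhibition, 8 had a positive log2 fold change, against 7592 of all 15241 tested genes. At an unadjusted p under 0.05 in edgeR, 1 was higher and 2 lower, against 10.4% and 10.9% of all tested genes. The groups were fully apart for 1 on each side, against 12.8% of all tested genes. Dtx1, a ubiquitin ligase that binds receptors, was at 2.35, 2.40, 2.15 and 2.66 CPM in ΔDMR1-U2 libraries, against 1.82, 1.53, 1.83 and 1.83 CPM in wild-type libraries, with no overlap and a log2 fold change of 0.45 (edgeR adjusted p = 0.137). Fbxw7, part of the ligase that marks the released receptor for breakdown, averaged 58.2 ± 9.44 CPM in ΔDMR1-U2 libraries and 68.8 ± 3.06 CPM in wild-type libraries (SD, n = 4 each), with -0.24 (edgeR adjusted p = 0.221). Itch, a further ubiquitin ligase, and Megf10, a satellite cell membrane protein, had 0.1 and 0.05 (edgeR adjusted p = 0.373 and 0.725). Hes6, a target relative that opposes Hes1, averaged 13.1 ± 2.17 CPM in ΔDMR1-U2 libraries and 15.9 ± 3.55 CPM in wild-type libraries, with a log2 fold change of -0.27 (edgeR adjusted p = 0.353). Hey2, a further Hey repressor, averaged 2.16 ± 0.59 CPM in ΔDMR1-U2 libraries and 1.61 ± 0.421 CPM in wild-type libraries, with 0.45 (edgeR adjusted p = 0.323). Exons of Dll4, Dlk2, Furin, Kdm5a and Ncor1 also overlap annotated exons on the other strand, over fewer bases than the 2051 of Nrarp. The shared bases were 214 in Dll4, 51 in Dlk2, 118 in Furin and 251 in Kdm5a. Ncor1 shared 1 base with Ttc19 and 82 with Pigl.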

How the data were processed

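Per the labels' protocols, muscle RNA went through ribosomal depletion and paired-end sequencing. The submitters' processing notes name TopHat2 2.0.9 with Bowtie2 2.1.0, HTSeq 0.5.4p3, FastQC 0.10.1, DESeq2 1.4.5 and build mm10. Per the file headers, the table holds a raw read count per gene and library, with no normalization. The authors' normalised group means, a signal of which nothing is printed here, stand beside them. The authors also deposited a linear fold, the ratio of wild-type over ΔDMR1-U2, its log2, and a p-value and adjusted p-value, per the file headers; these run opposite to the ΔDMR1-U2 over wild-type direction used here.

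The test was run in edgeR 4.0.16 under R 4.3.3. Genes passed filterByExpr at a minimum count of 10, which left 15241 of 23336. Scaling was by trimmed mean of M values (TMM), the groups were compared with the quasi-likelihood test without a covariate, and p-values were adjusted over all tested genes at 0.05. The biological coefficient of variation was 12.3%. DESeq2 1.42.0 was an alternative; 14937 genes had an adjusted p in it. The test was first checked on simulated data. A gene's level per kilobase used the union of its GENCODE vM21 exons. The members and lists were chosen with earlier results of these data known. All 10 members are named, and of the other pathway genes those with an unadjusted p under 0.05 and the 2 most abundant of each class; 1 gene that this rule takes is not reported here, and further genes were picked with their values in view. Figures were drawn with matplotlib 3.10.9.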

Additional observations from a re-analysis of the deposited data

Results flagged for a closer look

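In 5 of 62 checks, 1 per gene and group, the highest or lowest library stood apart from the other 3 by more than Dixon's 95% critical value for 4 samples; chance alone flags some groups among so many. Notch3 was at 179.9 CPM in ΔDMR1-U2 library 3, above 119.5 to 124.8 CPM in the others of its group. Kdm5a was at 175 CPM in ΔDMR1-U2 library 1B, above 158.3 to 160.7 CPM. Hes6 was at 16.4 CPM in ΔDMR1-U2 library 2, above 11.8 to 12.5 CPM. In wild-type library 1B, Dtx1 was at 1.53 CPM, below 1.82 to 1.83 CPM, and Notch4 at 15.4 CPM, below 19.2 to 19.8 CPM, in the others of its group.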

How the results depend on the processing

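Under all 18 alternatives 0 of the 10 Notch genes passed the adjusted threshold. The number of all genes called, 172 in edgeR, was 962 in DESeq2, 16 without both ΔDMR1-U2 libraries 1A and 1B, and 7 to 631 when 1 library was left out, with 7 to 22 in the 5 fits without ΔDMR1-U2 library 3 or any 1 wild-type library; the cause was not tested. Members with an unadjusted p under 0.05 numbered 1 to 4 when 1 library was left out, against 15.2% to 24.1% of all genes in those fits, and 1 without both 1A and 1B, against 13.4%. Further pathway genes called numbered 3 of 46 in DESeq2, or 6.52%, near the 6.44% of all genes, and 0 to 1 when 1 library was left out.

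Signs turned for 7 of the 10 members and for Adam10, and not for Dll1, Jag1 or Heyl. Without both 1A and 1B, Notch1 was at 0.091, Jag2 at 0.186, Rbpj at 0.0043, Hes1 at 0.038 and Hey1 at 0.051 (log2). With library totals only, which moved the median of all genes to 0.048, Rbpj was at 0.031 and Adam10 at 0.043. Adam10 was at 0.00297 with upper quartile scaling and 0.0031 at a minimum count of 30, and Notch3 at -0.0012 with no filter. With 1 library left out, the ranges were -0.0095 to 0.085 for Notch2, -0.158 to 0.061 for Notch3, -0.228 to 0.066 for Jag2, -0.048 to 0.021 for Rbpj, -0.229 to 0.024 for Hey1 and -0.043 to 0.037 for Adam10. An estimate with robust dispersions, added after seeing the data, turned no sign and gave 0 members called.

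A replicate block by library name gave 13 genes called and Notch3 at -0.011, and a replicate block by number 9 genes called and Notch3 at -0.017. Across the groups, libraries of the same name did not deviate together (correlations of -0.216 to -0.08, none matching its own name best). The names are therefore not read as pairs across the groups. This check compared libraries across the groups only, so it cannot show whether libraries within a group share a litter or an animal.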
